A study of Homo sapiens with 8 samples.

Results

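The suppressor of cytokine signalling (SOCS) family is a set of 8 human genes, CISH and SOCS1 to SOCS7, and each of them was found among the 40295 gene IDs of the count table by its Ensembl ID. The libraries came from HCT116, a human colorectal cancer cell line, and from an HCT116 derivative in which CRISPR-Cas9 had introduced the E33Q change into MED12. MED12 is the subunit of the Mediator kinase module that activates CDK8. There were 4 groups of 2 replicate libraries: knock-in cells given interferon-gamma (IFN-γ, 5 ng/ml) for 24 h, untreated knock-in cells, wild-type cells given the same treatment, and untreated wild-type cells. The untreated libraries are labelled 0 h, so IFN-γ and the extra day of culture cannot be told apart. A single knock-in line is named, so the E33Q change cannot be told apart from other differences between that line and its parent. In RNA from whole cultures, fewer expressing cells and less RNA per cell cannot be told apart. The comparisons asked how the family's transcripts responded to IFN-γ in each line and whether the lines differed.

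SOCS proteins are the feedback inhibitors of the JAK-STAT pathway. A cytokine receptor activates its Janus kinases (JAKs), these phosphorylate STAT transcription factors, and the STATs switch on SOCS genes among their targets. Each SOCS protein has an SH2 domain that binds phosphorylated tyrosine and a SOCS box that recruits ELOB, ELOC and the cullin CUL5 to form a ubiquitin ligase. SOCS1 and SOCS3 also carry a kinase inhibitory region that blocks JAK activity directly, and SOCS1 is known as the main brake on IFN-γ receptor signalling. CISH (the protein CIS) and SOCS2 are closest to each other and are best known from STAT5-driven feedback on growth hormone and related cytokines. SOCS4 to SOCS7 have long N-terminal regions and are better known as partners of receptor tyrosine kinases and adaptor proteins than as STAT-driven feedback genes.

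The RefSeq promoter table (GRCh38.p14, 250 bases before to 50 bases after each transcription start) held 5 of the 8 genes, namely SOCS1, SOCS3, CISH, SOCS4 and SOCS6; SOCS2, SOCS5 and SOCS7 are named only. Windows of 300 bases were searched on both strands for TTCNNNGAA and TTCNNNNGAA, the spaced half-sites that STAT dimers bind, and for GAAANNGAAA, a core that interferon regulatory factors bind. CISH and SOCS1 are shown because they were the members with a match. Both lie on the minus strand, CISH at chr3:50611725-50612024 and SOCS1 at chr16:11256155-11256454, and the sequences run 5′ to 3′ along the gene with matches in capitals.
CISH: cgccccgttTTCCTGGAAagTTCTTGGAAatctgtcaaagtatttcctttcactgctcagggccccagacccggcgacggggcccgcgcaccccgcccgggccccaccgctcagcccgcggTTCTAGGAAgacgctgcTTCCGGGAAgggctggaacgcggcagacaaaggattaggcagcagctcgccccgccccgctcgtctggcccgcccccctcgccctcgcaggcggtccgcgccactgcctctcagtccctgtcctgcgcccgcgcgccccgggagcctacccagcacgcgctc
SOCS1: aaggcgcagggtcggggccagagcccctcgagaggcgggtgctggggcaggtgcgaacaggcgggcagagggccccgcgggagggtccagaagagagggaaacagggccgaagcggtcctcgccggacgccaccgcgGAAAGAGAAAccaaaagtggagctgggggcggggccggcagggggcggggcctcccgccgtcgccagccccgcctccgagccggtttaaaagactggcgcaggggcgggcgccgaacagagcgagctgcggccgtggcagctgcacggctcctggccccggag
The CISH window held 4 matches to TTCNNNGAA, beginning 241, 230, 129 and 112 bases before the start. At least 1 such match stood in 7.66% of the 35116 promoter windows, and 4 or more stood in 7 windows (0.0199%). The CISH promoter is known from mouse as a STAT5 target with several such elements. The SOCS1 window held 1 match to GAAANNGAAA, 113 bases before the start, a motif found in 3.57% of all windows; IRF1 is known from mouse to activate the SOCS1 promoter. The windows of SOCS3 (2 starts), SOCS4 and SOCS6 held none of the 3 motifs, and TTCNNNNGAA stood in 6.44% of all windows. The SOCS3 windows span chr17:78359618-78359917 and chr17:78360876-78361175. Neither covers the bases just before the annotated start of the SOCS3 gene (78360077, minus strand), so that stretch was not searched. A match describes the letters of the window and was not tested as a binding site.

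Libraries held 20873145 to 28006378 estimated counts, and all 8 members were among the 16519 genes that passed the count filter. CPM gives a gene's count as its share of all counts in that library, scaled with TMM factors (trimmed means of log ratios between libraries). A gene is called when its p from edgeR's quasi-likelihood test, adjusted by Benjamini and Hochberg's method over all 16519 genes, is under 0.05. Responses across all genes moved with transcript GC content, and the mean GC content per count was 47.9 to 48.1% in treated libraries. In untreated libraries it was 45.2 to 45.4%, except for wild-type replicate 1 at 46.6%. ERCC spike-in RNA took 0.228 to 0.271% of the counts in treated and 0.110 to 0.141% in untreated libraries. The epithelial markers EPCAM, KRT8, KRT18, CDH1 and CDX2 were detected in every library, whereas LGR5 was at 0 throughout and VIL1 was at or near 0. The summed level of 8 plasma and B cell markers was 177.8 and 536 CPM in treated knock-in cells and 233 and 643.6 CPM in untreated knock-in cells. In wild-type cells that sum was 120.6 and 118.2 CPM with IFN-γ, against 558.9 and 683.2 CPM without. In both treated wild-type libraries and both knock-in libraries numbered 1, it was mostly XBP1 (56.4 to 166.1 CPM) and SDC1 (61.3 to 79.5 CPM). JCHAIN, a plasma cell gene, marked the libraries concerned, at 114 to 163 CPM in both knock-in libraries numbered 2 and both untreated wild-type libraries and at most 0.183 CPM in the others, while the B cell gene MS4A1 was at 0 in all 8. In wild-type cells this signal cannot be told apart from treatment. It was also uneven between the lines. Without IFN-γ it was in both wild-type libraries but only in knock-in replicate 2, and with IFN-γ only in knock-in replicate 2. Comparisons between the lines and between their responses carry this imbalance. Leaving out treated knock-in replicate 2 removes it from the comparison of treated cells, and those values are given below. Its effect on the other comparisons was not tested.

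After IFN-γ the family divided evenly in direction. In knock-in cells SOCS1, SOCS3, CISH and SOCS7 rose and SOCS2, SOCS4, SOCS5 and SOCS6 fell, so 8 of 8 members were called, where 52.1% of all tested genes were (26.4% higher and 25.8% lower). In wild-type cells 6 of 8 were called, where 37.9% of all tested genes were (17.1% higher and 20.8% lower): SOCS3, CISH and SOCS7 rose and SOCS2, SOCS5 and SOCS6 fell. In each line the treated and untreated libraries of all 8 members did not overlap, as was so for 78.9% of tested genes in knock-in and 69.6% in wild-type cells. With 1 library left out, the knock-in count stayed at 8, and the wild-type count was 3 without treated wild-type replicate 2 and 4 to 7 in the other fits. With the trend on GC content and length removed, 4 members were called in knock-in cells (30.1% of tested genes) and 3 in wild-type cells (24.1%). The family's summed level was 312.5 and 311.3 CPM in treated and 396.1 and 352.4 CPM in untreated knock-in cells. In wild-type cells the sum was 305.2 and 308.5 CPM with IFN-γ and 283.4 and 322 CPM without.

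**Figure D1:**
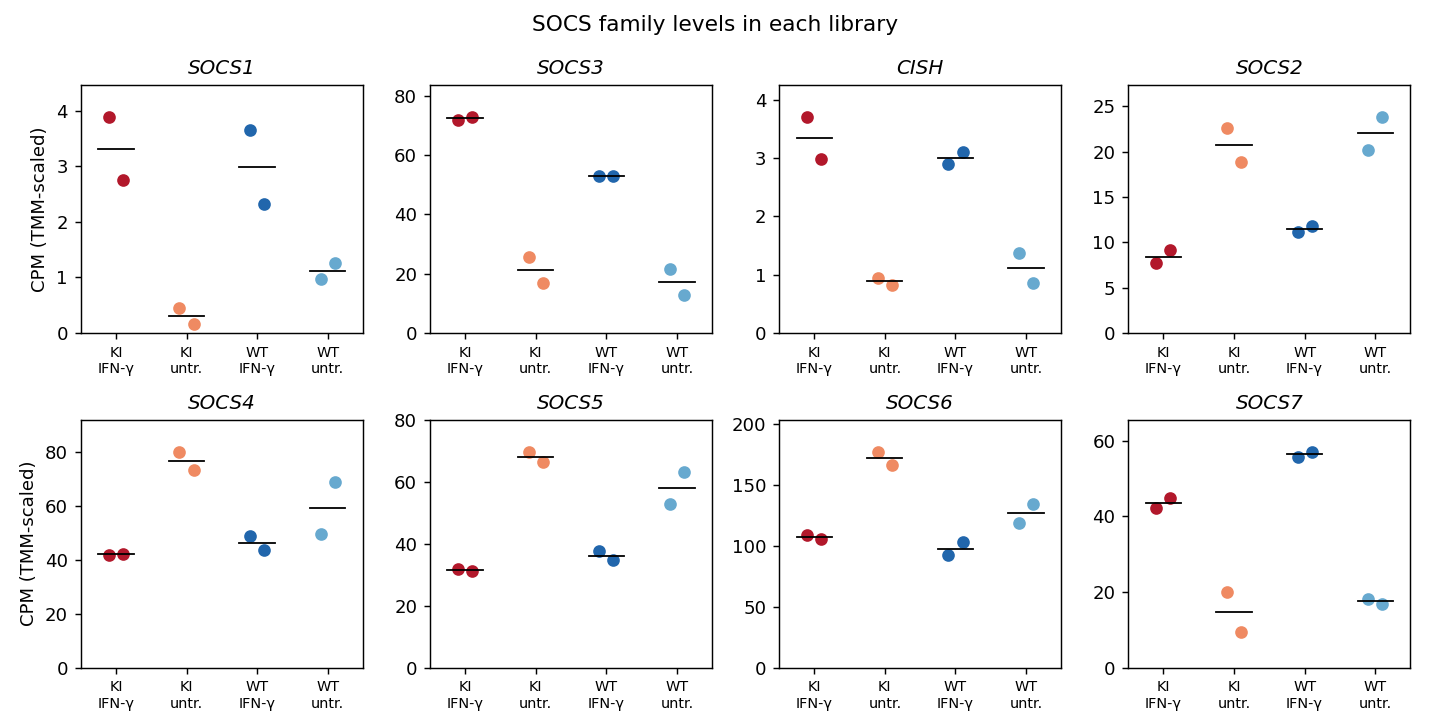
Level of each SOCS family gene in each library, in TMM-scaled CPM, with both replicates as points and their mean as a bar; each panel has its own axis from 0. SOCS1, SOCS3, CISH and SOCS7 stand higher and SOCS2, SOCS4, SOCS5 and SOCS6 lower in the treated libraries of each line, with SOCS4 closest in wild-type cells (48.91 and 43.68 CPM treated, 49.37 and 68.79 CPM untreated).

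SOCS1 had the largest fold change of the family in knock-in cells; in wild-type cells its fold change was below those of SOCS3 and SOCS7. Its estimated counts were 106 and 69 in treated and 8 and 4 in untreated knock-in libraries, or 3.88 and 2.75 CPM against 0.446 and 0.164 CPM. In wild-type cells there were 96 and 57 counts with IFN-γ and 21 and 25 without, or 3.66 and 2.33 CPM against 0.965 and 1.25 CPM. All 4 treated libraries lay above all 4 untreated ones, and the treated libraries of the lines overlapped. SOCS1 rose in knock-in cells by a log2 fold change of 3.47 ± 0.59 (SE; edgeR's quasi-likelihood test, adjusted p = 0.00109). In wild-type cells the log2 fold change was 1.43 ± 0.52 and was not called (edgeR, adjusted p = 0.0545). The knock-in estimate rests on the 8 and 4 counts of the untreated libraries, both under the minimum count of 10, and was 4.29 with untreated knock-in replicate 1 left out and 2.88 with replicate 2 left out. The wild-type value was called in edgeR fits that left out untreated knock-in replicate 1 (adjusted p = 0.0419) or 2 (0.0399), with voom (0.0438), upper-quartile factors (0.0459), no count filter (0.0348) or a filter of 50 counts (0.0403). Over the 8 fits that each left out 1 library it ran from 1.06 to 1.72.

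SOCS1 (chromosome 16, 11254405 to 11256200 on GRCh38, minus strand) lies wholly within RMI2 on the other strand. The annotated exons of the pair share no bases, so their exonic reads differ in sequence. The labels do not say whether counting used strand, and reads from RMI2 introns were not examined. RMI2, part of the BLM helicase complex that resolves recombination intermediates, stood at 16.3 and 15.72 CPM in treated and 7.02 and 8.21 CPM in untreated knock-in cells. In wild-type cells RMI2 stood at 15.49 and 14.25 CPM with IFN-γ and 6.53 and 8.17 CPM without. RMI2 rose by a log2 fold change of 1.07 ± 0.19 in knock-in cells (edgeR, adjusted p = 0.00143) and 1.02 ± 0.19 in wild-type cells (adjusted p = 0.00334).

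SOCS3, the JAK inhibitor best known for restraining receptors that signal through gp130, had a higher level per kilobase than SOCS1, SOCS2 and CISH in treated cells of both lines; without IFN-γ it did not differ from SOCS2 beyond the spread of the replicates. It had 1965 and 1824 counts in treated and 460 and 410 in untreated knock-in libraries, which is 71.98 and 72.76 CPM against 25.62 and 16.82 CPM. In wild-type cells it had 1390 and 1297 counts with IFN-γ and 467 and 254 without, which is 53.03 and 52.94 CPM against 21.47 and 12.73 CPM. The treated replicates of each line were almost equal, whereas the untreated replicates were spread. SOCS3 rose by 1.77 ± 0.26 in knock-in cells (edgeR, adjusted p = 0.000507) and by 1.63 ± 0.26 in wild-type cells (adjusted p = 0.00152). With the GC and length trend removed the rises were 0.96 (adjusted p = 0.00228) in knock-in and 1.20 (adjusted p = 0.00115) in wild-type cells, and both were still called.

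CISH also had few counts. There were 101 and 75 counts in treated and 17 and 20 in untreated knock-in libraries, or 3.7 and 2.99 CPM against 0.947 and 0.821 CPM. In wild-type cells it had 76 counts in each treated library and 30 and 17 in the untreated ones, or 2.9 and 3.1 CPM against 1.38 and 0.852 CPM. Every treated library was above every untreated one. CISH rose by 1.92 ± 0.43 in knock-in cells (edgeR, adjusted p = 0.00451) and by 1.42 ± 0.42 in wild-type cells (adjusted p = 0.0262). With the trend removed neither rise was called, at 0.95 (adjusted p = 0.102) in knock-in and 0.82 (0.16) in wild-type cells. The wild-type call was also lost in edgeR fits that left out wild-type treated replicate 1 (1.46, adjusted p = 0.0767) or 2 (1.37, 0.0896), wild-type untreated replicate 2 (1.12, 0.102) or knock-in treated replicate 1 (1.42, 0.0508), and in the fit of the wild-type groups alone (1.42, 0.0639). CISH shares 218 exon bases with MAPKAPK3, a stress-activated kinase gene on the other strand at 54.1 to 110.5 CPM in the 8 libraries. MAPKAPK3 rose in knock-in cells (0.80 ± 0.16, adjusted p = 0.00248) and had 0.29 ± 0.16 in wild-type cells (adjusted p = 0.178), so reads of the shared bases are uncertain.

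SOCS2, the inhibitor of growth hormone signalling, moved the other way from its closest relative CISH. It stood at 7.73 and 9.14 CPM in treated and 22.67 and 18.92 CPM in untreated knock-in cells. In wild-type cells it stood at 11.1 and 11.76 CPM with IFN-γ and 20.23 and 23.8 CPM without. The treated libraries were the 4 lowest. SOCS2 fell in knock-in cells (log2 fold change -1.30 ± 0.19; edgeR, adjusted p = 0.000484) and in wild-type cells (-0.95 ± 0.18, adjusted p = 0.00385). Its transcript GC content of 47.3% lies where the trend over all genes was near 0, and its values with the trend removed were -1.30 and -1.01, both called (edgeR, adjusted p = 0.000628 and 0.00281). SOCS2 was the only member called lower with that trend removed. The antisense gene SOCS2-AS1, which shares 277 exon bases with SOCS2, was not analysed here.

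SOCS4 and SOCS5 encode the related long SOCS proteins best known for promoting degradation of the EGF receptor, and both were lower in treated cells. SOCS4 stood at 41.94 and 42.17 CPM in treated and 79.88 and 73.08 CPM in untreated knock-in cells, and it fell there by 0.86 ± 0.17 on the log2 scale (edgeR, adjusted p = 0.00236). In wild-type cells SOCS4 had 48.91 and 43.68 CPM with IFN-γ and 49.37 and 68.79 CPM without, a log2 fold change of -0.35 ± 0.17 that was not called (adjusted p = 0.132). The untreated wild-type replicates were far apart, and that value was -0.66 (called, adjusted p = 0.00464) with the first of them left out and -0.09 with the second left out. SOCS5 stood at 31.76 and 31.32 CPM in treated and 69.58 and 66.47 CPM in untreated knock-in cells. In wild-type cells SOCS5 stood at 37.65 and 34.66 CPM with IFN-γ and 52.68 and 63.13 CPM without. The gene LINC01118 shares 160 exon bases with SOCS5 on the same strand and was not analysed here. SOCS5 fell in knock-in cells (-1.11 ± 0.14; edgeR, adjusted p = 0.0003) and in wild-type cells (-0.68 ± 0.14, adjusted p = 0.00509). The wild-type fall was not called with treated wild-type replicate 2 left out (-0.62, adjusted p = 0.0573).

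SOCS6, an adaptor-like SOCS protein that binds the insulin receptor and KIT, made up the largest part of the family's summed level in all 8 libraries. It stood at 109.3 and 105.5 CPM in treated and 177.1 and 166.7 CPM in untreated knock-in cells. In wild-type cells it stood at 92.24 and 103.1 CPM with IFN-γ and 119 and 134.7 CPM without. The groups did not overlap in either line, and untreated knock-in cells were the highest group. SOCS6 fell in knock-in cells (-0.68 ± 0.13; edgeR, adjusted p = 0.00179) and in wild-type cells (-0.38 ± 0.13, adjusted p = 0.0424). The wild-type call held in 1 of 8 fits that left out a library, with values of -0.55 to -0.29. It was lost in the edgeR fits that left out knock-in treated replicate 1 (adjusted p = 0.0947) or 2 (0.0947), knock-in untreated replicate 1 (0.0583) or 2 (0.0578), wild-type treated replicate 1 (0.25) or 2 (0.103), or wild-type untreated replicate 2 (0.0923). It was also lost in the fit of the wild-type groups alone (0.142), with upper-quartile factors (0.0634) and without a count filter (0.0611).

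With the trend on GC content and length removed, the falls of SOCS4, SOCS5 and SOCS6 did not remain. SOCS4 was then at 0.09 in knock-in and 0.27 in wild-type cells, SOCS6 at 0.09 and 0.11, and SOCS5 at -0.20 and -0.06, none of them called. The transcripts of these 3 genes have GC contents of 35.3% (SOCS4), 37.5% (SOCS5) and 38% (SOCS6). Tested genes with 35 to 40% GC had a median log2 fold change of -0.92 in knock-in and -0.64 in wild-type cells.

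SOCS7, which binds the adaptor NCK1 and insulin receptor substrates, was the only long SOCS gene that rose. It had 1151 and 1121 counts in treated and 357 and 230 in untreated knock-in libraries, or 42.16 and 44.72 CPM against 19.89 and 9.44 CPM. In wild-type cells it had 1461 and 1396 counts with IFN-γ and 398 and 335 without, or 55.74 and 56.99 CPM against 18.3 and 16.78 CPM. The groups did not overlap, and untreated knock-in replicate 2 was the lowest of the 8. SOCS7 rose by 1.58 ± 0.28 in knock-in cells (edgeR, adjusted p = 0.00141) and by 1.68 ± 0.28 in wild-type cells (adjusted p = 0.0019). The knock-in value was 2.20 with untreated knock-in replicate 1 left out and 1.12 with replicate 2 left out, called in both. With the trend removed the rises were 0.73 (adjusted p = 0.0477) in knock-in and 1.06 (adjusted p = 0.0116) in wild-type cells.

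**Figure D2:**
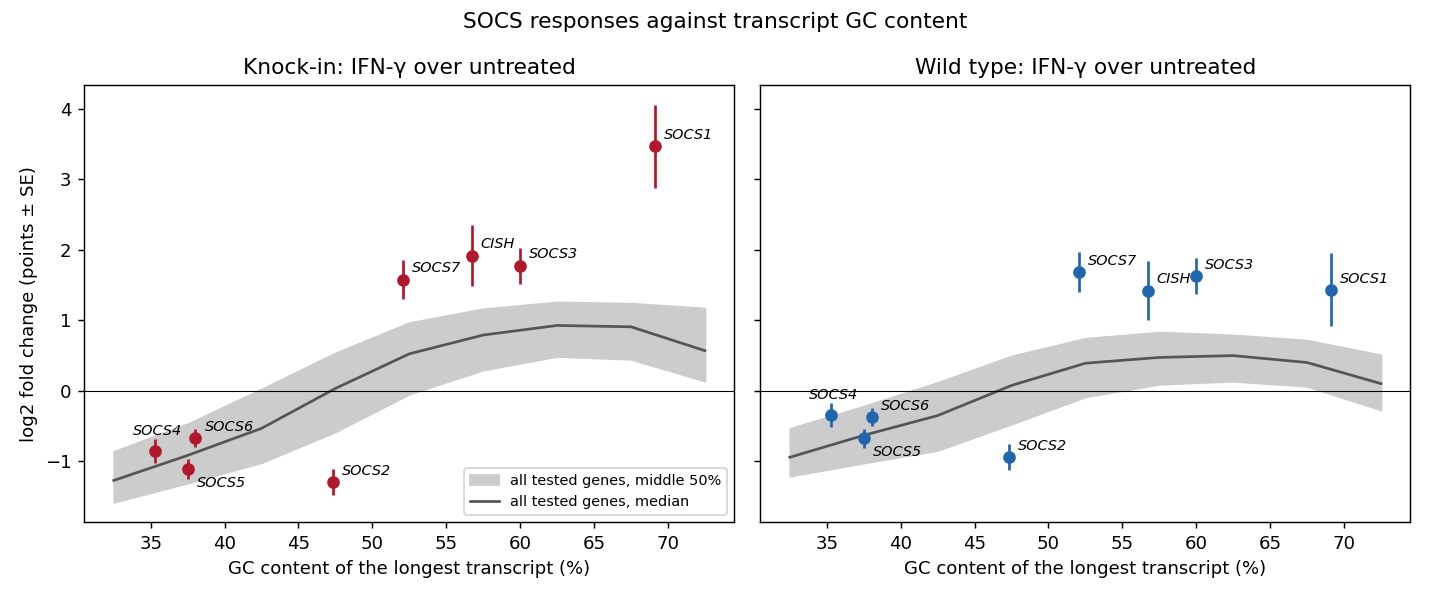
Log2 fold change with IFN-γ (y axis) against the GC content of the longest annotated transcript in percent (x axis), for knock-in cells (left) and wild-type cells (right); points are SOCS family genes with standard errors, the line is the median and the band the middle 50% of all tested genes in bins of GC content. SOCS4, SOCS5 and SOCS6 lie within or near the band, whereas SOCS1, SOCS3, CISH and SOCS7 lie above it and SOCS2 below it in both lines.

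The 4 members that were higher in treated cells have transcript GC contents of 52.1% (SOCS7), 56.7% (CISH), 60% (SOCS3) and 69.1% (SOCS1), and the 4 that were lower have 35.3 to 47.3%. Tested genes with 60 to 65% GC had a median log2 fold change of 0.93 in knock-in and 0.50 in wild-type cells. At the GC content and length of the members, the fitted trend over all genes was 0.83 (SOCS3), 0.98 (CISH), 0.87 (SOCS7) and 0.68 (SOCS1) in knock-in cells. In wild-type cells it was 0.47 (SOCS3), 0.64 (CISH), 0.63 (SOCS7) and 0.18 (SOCS1). SOCS1 was still called in knock-in cells with the trend removed, at 2.82 (edgeR, adjusted p = 0.00532), and was not called in wild-type cells at 1.21 (adjusted p = 0.12).

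Scaling to the spike-in totals moved the median of all tested genes to -0.41 in knock-in and -0.72 in wild-type cells. On that scale SOCS1 (2.94, adjusted p = 0.00515), SOCS3 (1.24, 0.0204) and SOCS7 (1.04, 0.0372) were called higher in knock-in cells, and CISH was not (1.39, 0.0572). In wild-type cells none of the 4 was called on that scale, with SOCS7 at 0.87 (adjusted p = 0.0634), SOCS3 at 0.79 (0.106), SOCS1 at 0.68 (0.385) and CISH at 0.58 (0.39). SOCS2, SOCS4, SOCS5 and SOCS6 were called lower in both lines, at -1.83 to -1.21 in knock-in cells and -1.74 to -1.11 in wild-type cells. In all, 7 members were called in knock-in cells (36.9% of tested genes) and 4 in wild-type cells (42.2%). Leaving out both knock-in libraries numbered 2, which carried the plasma cell RNA, left 5 members called in knock-in cells (20.4% of tested genes). These were SOCS1 (3.11), SOCS3 (1.49), SOCS7 (1.08), SOCS2 (-1.55) and SOCS5 (-1.13), while CISH (1.96), SOCS4 (-0.93) and SOCS6 (-0.70) were not called. Each knock-in group then holds 1 library, the spread comes from the wild-type libraries alone, and the lone libraries are assumed to vary like those.

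**Figure D3:**
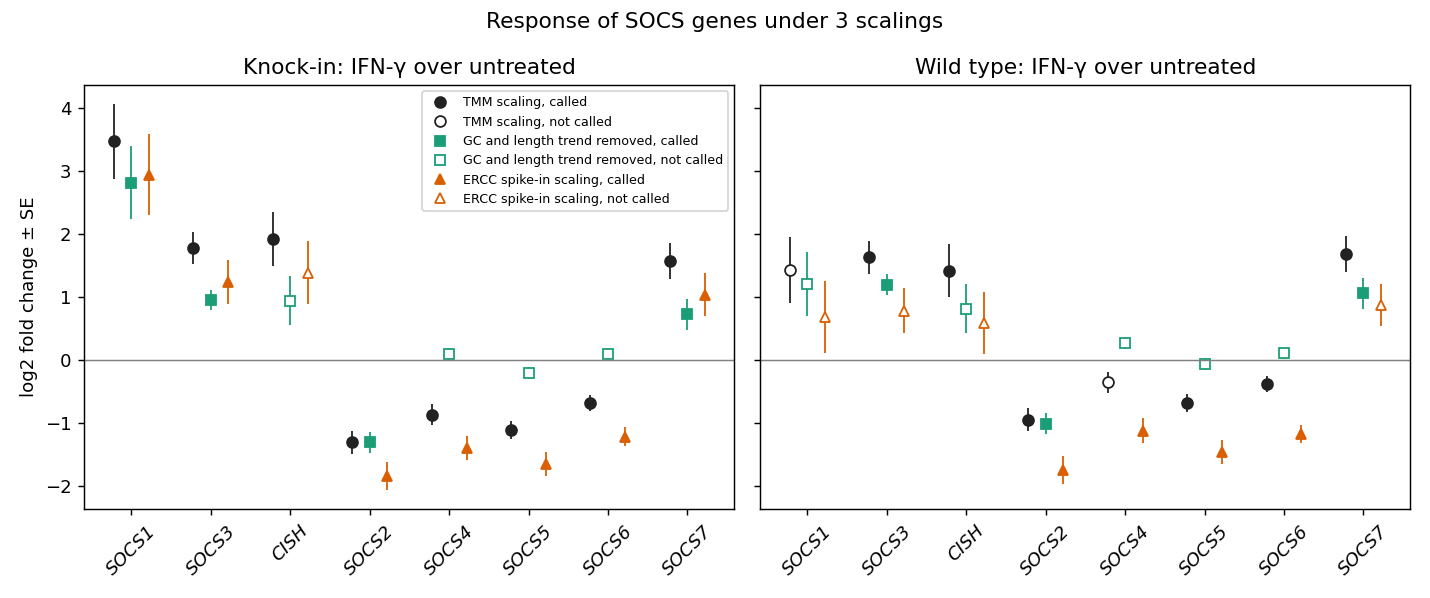
Log2 fold change with IFN-γ ± standard error of each SOCS family gene in knock-in cells (left) and wild-type cells (right) under TMM scaling, with the GC and length trend removed, and under ERCC spike-in scaling; filled symbols were called. The 4 higher members keep their direction under all 3, SOCS2 stays lower under all 3, and SOCS4 and SOCS6 stand just above 0 only with the trend removed.

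Between the lines no member was called without IFN-γ (8.43% of tested genes were) or with it (2.91%). The largest difference was that of SOCS1 in untreated cells, at 0.446 and 0.164 CPM in knock-in and 0.965 and 1.25 CPM in wild-type cells. The libraries did not overlap, and the log2 fold change was -1.89 ± 0.59 (edgeR, adjusted p = 0.0794). Without a count filter it was called (adjusted p = 0.0285), with the trend removed it was -1.53 (0.116), and over the fits without 1 library it ran from -2.71 to -1.30 with no call. With IFN-γ the SOCS1 difference was 0.15 ± 0.49 (adjusted p = 0.931). SOCS6 was higher in untreated knock-in cells by 0.44 ± 0.13 without a call (edgeR, adjusted p = 0.0629), and it was called at 0.53 with untreated wild-type replicate 2 left out (0.0125), with DESeq2 (0.0244) and without a count filter (0.046). SOCS4 had 0.37 ± 0.17 (adjusted p = 0.193), called at 0.63 with that same replicate left out (0.0113). SOCS7 had -0.27 ± 0.28 (adjusted p = 0.59), which was -0.89 with untreated knock-in replicate 1 left out (called, 0.0466) and 0.18 with replicate 2 left out. The other untreated differences were -0.34 ± 0.44 for CISH, 0.31 ± 0.26 for SOCS3, 0.23 ± 0.14 for SOCS5 and -0.08 ± 0.18 for SOCS2. At the members' GC content and length, the fitted trend between untreated lines was 0.34 for SOCS4, 0.29 for SOCS5 and 0.27 for SOCS6. For SOCS2 it was 0.13, and for the other members -0.43 to -0.20. With untreated wild-type replicate 2 left out, the remaining untreated wild-type library had a mean GC content per count of 46.6%. The untreated knock-in libraries had 45.2 and 45.3%.

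With IFN-γ, SOCS3 had 71.98 and 72.76 CPM in knock-in and 53.03 and 52.94 CPM in wild-type cells, a log2 fold change of 0.45 ± 0.25 (edgeR, adjusted p = 0.431). SOCS7 had 42.16 and 44.72 CPM in knock-in and 55.74 and 56.99 CPM in wild-type cells, at -0.38 ± 0.27 (adjusted p = 0.572). In both genes the treated replicates lay far closer to each other than the lines did, and both were called in a fit of the treated groups alone (SOCS3 0.47, adjusted p = 0.00507; SOCS7 -0.36, 0.021). That fit takes its spread from 4 libraries and called 15.2% of the 15930 genes it tested. SOCS2 was lower in treated knock-in cells at -0.44 ± 0.19 (adjusted p = 0.298), and the others lay between -0.20 and 0.16. Leaving out treated knock-in replicate 2, the only treated library with the plasma cell RNA, gave 0.44 for SOCS3, -0.42 for SOCS7 and -0.56 for SOCS2. The others then lay between -0.18 and 0.38. The libraries of the lines did not overlap for 6 members with IFN-γ, where 57.7% of tested genes did not, and for 4 members without it, where 50.6% did not.

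The difference between the responses, knock-in minus wild-type, was called for no member and for none of the 16519 genes (0%). Of these, 1119 (6.77%) had an unadjusted p under 0.05 in edgeR, DESeq2 called 4 genes and voom called 0. The SOCS1 difference was 2.04 ± 0.77 (edgeR, unadjusted p = 0.0257, adjusted p = 0.688) and 1.45 to 2.86 over the fits without 1 library, so its being called in knock-in cells alone does not show that the lines responded differently. SOCS4 (-0.51 ± 0.24), SOCS5 (-0.43 ± 0.20), SOCS2 (-0.36 ± 0.26) and SOCS6 (-0.30 ± 0.18) had lower values in knock-in cells, none called (edgeR, adjusted p = 0.688 to 0.704). CISH had 0.50 ± 0.59, SOCS3 0.14 ± 0.36 and SOCS7 -0.11 ± 0.39. Free of the GC trend, SOCS4 was at -0.18, SOCS5 at -0.14 and SOCS6 at -0.01, while SOCS1 was at 1.60 (adjusted p = 0.794).

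**Figure D4:**
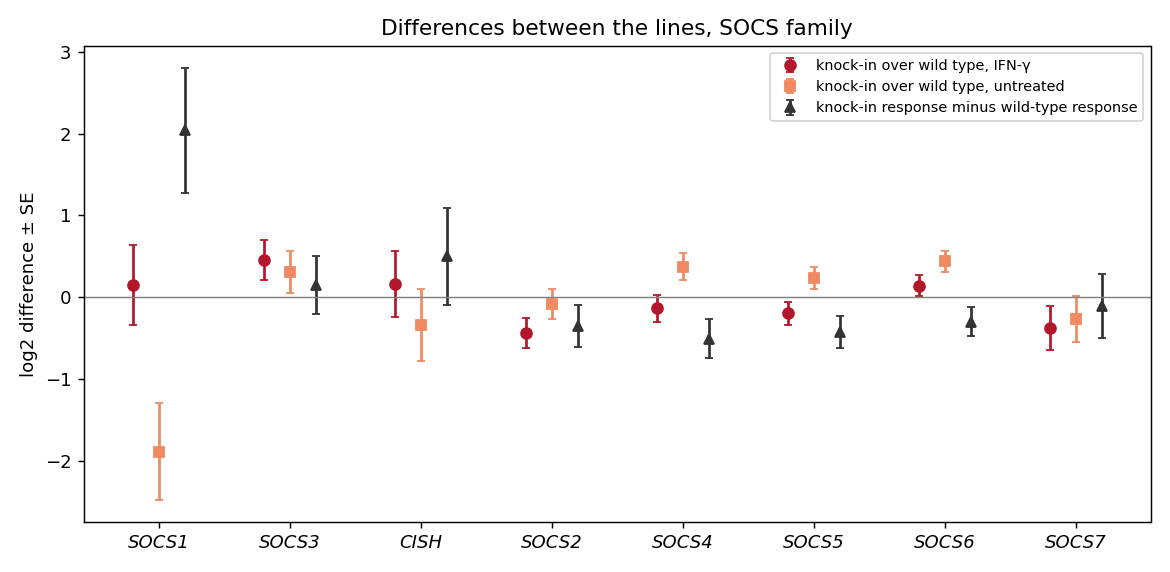
Log2 difference between the lines ± standard error for each SOCS family gene: knock-in over wild type with IFN-γ, knock-in over wild type without it, and the knock-in response minus the wild-type response. No point was called; SOCS1 stands apart with -1.89 in untreated cells and 2.04 for the difference between responses, with the widest error bars.

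Averaged over the lines, all 8 members were called with IFN-γ, where 58.5% of tested genes were. The mean rises were 2.45 ± 0.39 for SOCS1, 1.70 ± 0.18 for SOCS3, 1.67 ± 0.30 for CISH and 1.63 ± 0.20 for SOCS7. The mean falls were -1.12 ± 0.13 for SOCS2, -0.89 ± 0.10 for SOCS5, -0.61 ± 0.12 for SOCS4 and -0.53 ± 0.09 for SOCS6. With the trend removed 5 remained called, the 4 rises and SOCS2. Averaged over treatment, no member was called between the lines (13.9% of tested genes were). SOCS6 had 0.29 ± 0.09 (edgeR, adjusted p = 0.0633), SOCS3 0.38 ± 0.18 (0.196) and SOCS1 -0.87 ± 0.38 (0.166). After trend removal SOCS3 was called at 0.41 (0.0306).

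Levels were compared between genes as CPM per kilobase of the longest annotated transcript. In treated knock-in cells SOCS3 was highest at 26.5 ± 0.202 (SD, n = 2), then SOCS6 at 18.4 ± 0.468. SOCS5 (6.61 ± 0.0659), SOCS4 (6.2 ± 0.0232) and SOCS7 (5.53 ± 0.23) followed, then SOCS2 (2.26 ± 0.266), SOCS1 (1.86 ± 0.448) and CISH (0.664 ± 0.0993). Of these neighbours SOCS2 and SOCS1 did not differ beyond their spread. In untreated knock-in cells SOCS6 led at 29.4 ± 1.25, before SOCS5 (14.3 ± 0.46), SOCS4 (11.3 ± 0.71), SOCS3 (7.76 ± 2.28), SOCS2 (5.57 ± 0.712) and SOCS7 (1.87 ± 0.94). CISH (0.175 ± 0.0177) and SOCS1 (0.171 ± 0.112) came last and did not differ beyond their spread, nor did SOCS3 and SOCS2.

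In treated wild-type cells the order was SOCS3 (19.4 ± 0.0213 CPM per kilobase), SOCS6 (16.7 ± 1.31), SOCS5 (7.58 ± 0.444), SOCS7 (7.17 ± 0.113), SOCS4 (6.83 ± 0.545), SOCS2 (3.06 ± 0.124), SOCS1 (1.68 ± 0.529) and CISH (0.595 ± 0.0285). SOCS7 did not differ beyond its spread from SOCS5 or SOCS4. In untreated wild-type cells it was SOCS6 (21.7 ± 1.89), SOCS5 (12.1 ± 1.55), SOCS4 (8.72 ± 2.03), SOCS3 (6.25 ± 2.26), SOCS2 (5.9 ± 0.676), SOCS7 (2.23 ± 0.136), SOCS1 (0.622 ± 0.114) and CISH (0.221 ± 0.074). Neighbours from SOCS5 to SOCS2 did not differ beyond their spread. Thus SOCS6 led in untreated and SOCS3 in treated cells of both lines. With the median transcript length in place of the longest, SOCS6 (37.2) stood above SOCS3 (34.2) in treated wild-type cells. By that length SOCS7 ranked 3 in treated and SOCS2 ranked 3 in untreated cells of both lines. CISH and SOCS1 were the lowest pair in every group by either length.

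The genes whose levels followed each member most closely were named by Pearson's r of log2 CPM over the 8 libraries, among 13145 genes with a mean of at least 1 CPM. These libraries share the treatment contrast and its GC trend, so the values describe likeness only. For SOCS1 they were MTR (0.989), AKT1S1 (0.983), C1QTNF6 (0.983), RUNX3 (0.982) and DLL1 (0.982), and for SOCS3 IL17RC, CHD6 and MAFF (each 0.995). For CISH they were TIMELESS, SPG7 and LGALS3BP (each 0.994), for SOCS2 KPNA3 (0.998), PCDH7 (0.996) and CXorf57 (0.996), and for SOCS7 ENTPD4 (0.995), OTUD4 (0.994) and RGP1 (0.993). For SOCS4 they were KLHL28 (0.996), FBXO30 (0.995) and CCDC186 (0.994), for SOCS5 GLCE (0.999), AFTPH (0.998) and RPGRIP1L (0.996), and for SOCS6 DYNLT3 (0.997), PJA2 (0.995) and RTKN2 (0.994). Within the family the closest pairs were SOCS3 with CISH (0.953), SOCS2 with SOCS5 (0.952) and SOCS4 with SOCS5 (0.95), and the most opposed pair was CISH with SOCS5 (-0.983).

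Upstream of the family, the interferon factors rose in both lines. IRF1, an interferon-induced factor that binds motifs of the SOCS1 promoter type, stood at 352.3 and 335.6 CPM in treated and 11.31 and 11.41 CPM in untreated knock-in cells. In wild-type cells IRF1 stood at 336.6 and 361.1 CPM with IFN-γ and 13.61 and 10.32 CPM without. It rose by 4.92 ± 0.17 in knock-in (edgeR, adjusted p = 9.62e-07) and 4.86 ± 0.17 in wild-type cells (9.83e-07). A link between the levels of IRF1 and SOCS1 was not tested. IRF9 (2.04 and 2.31) and STAT2 (2.06 and 1.95), which join the complex formed after type I interferon, also rose in knock-in and wild-type cells. Of 10 tested STAT and IRF genes, 8 rose and 1 fell in knock-in cells and 7 rose in wild-type cells, beside 26.4% higher and 25.8% lower in knock-in and 17.1% and 20.8% in wild-type cells among all tested genes. Those 4 shares are the background for every gene list here. In either direction, the shares of all genes called were 30.1% in knock-in and 24.1% in wild-type cells with the trend removed, and 36.9% and 42.2% with spike-in scaling. The STAT and IRF genes had a median log2 fold change of 1.91 in knock-in and 1.49 in wild-type cells, beside 0.12 and 0.08 for all tested genes. Without the GC trend 6 were called higher in each line, and under spike-in scaling 5 were higher and 1 lower in each.

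Receptors and kinases of the pathway moved both ways. Of 17 tested, 7 rose and 8 fell in knock-in cells, and 5 rose and 4 fell in wild-type cells. In all 15 and 9 of 17 were called, where 52.1% of all genes were in knock-in and 37.9% in wild-type cells, and the medians were 0.17 and 0.10, near those of all genes (0.12 and 0.08). The largest rise was that of IL22RA1, a chain of the interleukin-22 receptor, at 2.14 ± 0.30 in knock-in and 2.31 ± 0.30 in wild-type cells. IL4R, the interleukin-4 receptor chain, rose by 1.60 ± 0.30 in knock-in and 1.07 ± 0.29 in wild-type cells. IFNGR1, the ligand-binding chain of the IFN-γ receptor, fell in both lines (-1.20 ± 0.18 in knock-in and -1.14 ± 0.18 in wild-type cells), and with the trend removed it was called only in wild-type cells (-0.34 and -0.50). LEPR, the leptin receptor that SOCS3 inhibits, fell in both lines (-1.76 ± 0.22 in knock-in and -1.18 ± 0.22 in wild-type cells). JAK2, the kinase inhibited by SOCS1 and SOCS3, fell by 0.50 ± 0.17 in knock-in cells (edgeR, adjusted p = 0.032) and had -0.35 ± 0.17 in wild-type cells (0.137). Here and in the lists below, values of single genes still hold the GC trend unless it is said to be removed. With the trend removed 5 were higher and 3 lower in knock-in and 2 and 3 in wild-type cells; scaled to the spike-ins, 1 was higher and 8 lower in knock-in and 1 and 9 in wild-type cells.

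Of 18 other inhibitors of the pathway, 11 rose and 3 fell in knock-in cells, and 10 rose and 2 fell in wild-type cells, where 26.4% and 17.1% of all genes rose. Their median log2 fold changes were 0.84 in knock-in and 0.62 in wild-type cells, beside 0.12 and 0.08 for all genes. USP18, which restrains the type I interferon receptor, rose by 2.22 ± 0.18 in knock-in and 2.16 ± 0.18 in wild-type cells. SH2B3, an adaptor that dampens JAK2 signalling, rose by 1.60 ± 0.34 in knock-in and 1.04 ± 0.34 in wild-type cells. PTPN2, a phosphatase that acts on JAK1, fell in both lines (-1.29 ± 0.18 in knock-in and -1.25 ± 0.18 in wild-type cells). Once the GC trend was taken out, 7 were higher and 3 lower in knock-in cells and 6 and 2 in wild-type cells. Spike-in scaling left 1 higher and 4 lower in knock-in cells and 1 and 7 in wild-type cells.

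Downstream of the SOCS box, the ubiquitin ligase partners were lower with IFN-γ. Of 10 tested, 8 fell in each line and 1 rose in knock-in cells, where 25.8% of all genes fell in knock-in and 20.8% in wild-type cells. The median was -0.83 in knock-in and -0.78 in wild-type cells, beside 0.12 and 0.08 for all genes. CUL5, the scaffold of the ligase, stood at 90.08 and 86.09 CPM in treated and 257.4 and 225.3 CPM in untreated knock-in cells, and at 84.54 and 99.11 CPM in treated and 162.7 and 220.4 CPM in untreated wild-type cells. It fell, at -1.45 ± 0.17 in knock-in (edgeR, adjusted p = 0.000223) and -1.06 ± 0.17 in wild-type cells (0.00152). The adaptor ELOC fell in both lines (-1.10 ± 0.15 in knock-in and -1.12 ± 0.15 in wild-type cells), as did RBX1, a RING protein (-1.33 ± 0.16 and -1.29 ± 0.16). Free of the GC trend, 6 fell in knock-in and 7 in wild-type cells, among them ELOC (-1.18 and -1.24), CUL5 (-0.59 and -0.51) and RBX1 (-0.57 and -0.69). Scaled to the spike-ins, 9 fell in knock-in and all 10 in wild-type cells.

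A further list held other proteins with a SOCS box or a related box, the latter including VHL and KLHDC2. Whether they compete for the same partners was not tested. Of 34 listed genes 25 were tested, of which 7 rose and 5 fell in knock-in cells and 5 rose and 1 fell in wild-type cells. These shares lie below the 52.1% and 37.9% of all genes called in knock-in and wild-type cells, and the medians were -0.11 and -0.03. SPSB1, which targets inducible nitric oxide synthase, rose by 1.29 ± 0.21 in knock-in and 1.59 ± 0.21 in wild-type cells. ASB6 rose by 1.16 ± 0.22 and 0.84 ± 0.22, and ASB9 fell by 1.23 ± 0.36 in knock-in cells and had -0.70 ± 0.36 in wild-type cells (edgeR, adjusted p = 0.16). Taking out the GC trend left 2 higher and 2 lower in knock-in and 3 higher and 1 lower in wild-type cells. With spike-in factors 8 fell in knock-in and 11 in wild-type cells, and none rose.

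Of 14 tested receptors and substrates that SOCS proteins bind, 8 rose and 1 fell in each line, where 26.4% of all genes rose in knock-in and 17.1% in wild-type cells. Medians were 0.95 in knock-in and 0.65 in wild-type cells, against 0.12 and 0.08 over all genes. EGFR, a target of SOCS4 and SOCS5, rose by 1.07 ± 0.14 in knock-in and 0.69 ± 0.14 in wild-type cells. Averaged over treatment it was lower in knock-in cells (-0.84, edgeR adjusted p = 0.000602), with 107.9 and 101.8 CPM in treated knock-in and 171.7 and 157.9 CPM in treated wild-type cells. NCK1, the adaptor that SOCS7 binds, fell in both lines (-1.44 ± 0.18 in knock-in and -1.18 ± 0.18 in wild-type cells), the opposite direction to SOCS7. RELA, the NF-κB subunit that SOCS1 targets, rose by 1.43 ± 0.25 and 0.83 ± 0.24. TIRAP, the Toll-like receptor adaptor that SOCS1 marks for degradation, rose by 1.10 ± 0.25 and 1.05 ± 0.25. After trend removal 4 rose and 1 fell in knock-in and 3 rose and 1 fell in wild-type cells. Scaled to the spike-ins, none rose, 2 fell in knock-in and 3 in wild-type cells.

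Of 16 tested target genes of STAT3 and STAT5, the factors that induce SOCS3, CISH and SOCS2, 7 rose and 1 fell in knock-in cells and 5 rose and 2 fell in wild-type cells. In either direction this is near the 52.1% of all genes called in knock-in and the 37.9% in wild-type cells. By direction, 26.4% of all genes rose and 25.8% fell in knock-in cells, and 17.1% rose and 20.8% fell in wild-type cells. The medians were 0.45 in knock-in and 0.31 in wild-type cells, beside 0.12 and 0.08 for all genes. BCL6, a transcriptional repressor, rose by 1.65 ± 0.20 in knock-in and 1.74 ± 0.20 in wild-type cells. MYC rose by 1.41 ± 0.19 in knock-in and 0.63 ± 0.19 in wild-type cells, and CCND1, which encodes cyclin D1, by 1.21 ± 0.21 and 0.64 ± 0.21. Averaged over treatment, MYC (edgeR, adjusted p = 0.00161), CCND1 (-0.67, 0.0166) and FOS (-1.15, 0.000156) were lower in knock-in cells. MYC stood at 260.3 and 264.4 CPM in treated knock-in and 404.2 and 400.2 CPM in treated wild-type cells, and at 92.47 and 105.1 CPM in untreated knock-in and 316.2 and 202.2 CPM in untreated wild-type cells. After trend removal 4 rose in knock-in cells, and 1 rose and 1 fell in wild-type cells. With spike-in factors 2 rose and 1 fell in knock-in cells, and 1 rose and 6 fell in wild-type cells.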

How the data were processed

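Per the submitters' processing notes, Trimmomatic, kallisto and GRCh38 were used; the sources used here give no version, annotation or strand setting. Values are the authors' estimated counts as deposited, for 40295 gene IDs plus 63 ERCC controls. Of the nonzero values 58.3% are not whole (tolerance 1e-06), so counts were rounded. GENCODE release 29 gave names (35583 IDs), positions, GC content and length. Genes passing edgeR's filterByExpr (minimum count 10) were fitted with edgeR 4.0.16 in R 4.3.3: TMM factors of 0.8604 to 1.134, group as the only factor, all 8 libraries in one fit, quasi-likelihood F test and Benjamini-Hochberg adjustment; the common coefficient of variation was 20.4%. Spike-ins were left out of the tests. Standard errors were derived from the fold change and the F statistic. The design text calls the replicates biological; p-values measure the spread between these samples. The GC and length trend of each library was removed as a loess offset (span 0.3; GC content known for 92.4% of tested genes, the rest left as they were).

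The members, the 7 pathway lists and the tests were chosen with earlier results of these data known. Named genes were all members; IRF1, JAK2, IFNGR1, PTPN2, USP18 and 1 gene that is not reported here; and, per list, up to 3 called genes with the largest mean response and up to 3 with the largest mean line difference; not all are given in the text. Alternatives were other size factors, spike-in scaling, DESeq2 1.42.0, limma-voom (limma 3.58.1), 2 other filters (1 of 50 counts in 2 libraries), the replicate block, only the groups compared, and libraries left out. The combination of trend removal with the block was added after the data were seen. The fit was tested on simulated data.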

Additional observations from a re-analysis of the deposited data

How the results depend on the processing

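Depth limits SOCS1 and CISH, with 4 to 106 counts per library, and each group has 2 libraries. The counts of called members in the response of each line did not move with other size factors, DESeq2, voom, the filters or the replicate block by over 1.5 times. With the replicate number as a block 8 members were called in knock-in and 6 in wild-type cells, and the block alone changed no call of a member. Replicate 1 minus replicate 2 differences correlated across genes at 0.27 between the knock-in groups. Between the other pairs of groups they correlated at -0.002 to 0.074. Both knock-in libraries numbered 2 also carried the plasma cell RNA, so knock-in samples may be paired by number. In the main fit the numbers were not taken to pair samples. The block was a term shared by both lines, so it could not fit a pairing within the knock-in line alone. Of 1096 member values under an alternative, 991 kept direction and side of the threshold, 35 lost and 25 gained a call, and 45 changed sign. Fitting only the groups compared gives no value for the difference between responses or the means. Where values changed, the cause was not tested.

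Members called, of 8, fell in knock-in cells to 4 with the GC and length trend removed (4 with the block as well) and 5 without both knock-in libraries numbered 2. In wild-type cells 3 were called with the trend removed (3 with the block). The mean response kept 5 (5 with the block). Untreated cells had 1 member called between the lines with DESeq2, 2 without a filter and 1 with the trend removed and the block. Treated cells had 2 in the fit of those groups alone. The mean line difference had 1 with upper-quartile factors, 1 with DESeq2, 1 without a filter and 1 with the trend removed (1 with the block). Over fits that left out 1 library, the wild-type response had 3 (without treated wild-type replicate 2) to 7, untreated cells between the lines 0 to 2, the mean line difference 0 to 1, and the knock-in and mean responses 8 throughout.

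Values that changed sign with the trend removed, without and with the replicate block, were SOCS4 (0.091 and 0.091) and SOCS6 (0.094 and 0.094) in the knock-in response, SOCS4 (0.27 and 0.27) and SOCS6 (0.11 and 0.11) in the wild-type response and SOCS4 (0.18 and 0.18) and SOCS6 (0.10 and 0.10) in the mean response. Others were SOCS5 between untreated lines (-0.053 and -0.053), SOCS3 in the difference between responses (-0.24 and -0.24), and SOCS4 (-0.036 and -0.036) and SOCS5 (-0.12 and -0.12) in the mean line difference. Spike-in scaling turned SOCS3 (-0.062) and SOCS5 (-0.08) between untreated lines, SOCS7 (0.16) in the difference between responses and SOCS4 (-0.066) and SOCS5 (-0.17) in the mean line difference; voom turned SOCS7 (0.028) in the difference between responses. Without both knock-in libraries numbered 2, SOCS2 (0.046) and SOCS7 (0.18) turned between untreated lines, SOCS3 (-0.14) in the difference between responses and CISH (0.035) in the mean line difference. Leaving out 1 library gave, between untreated lines, -0.022 to 0.73 for SOCS3, -0.22 to 0.045 for SOCS2, -0.89 to 0.18 for SOCS7 and -0.64 to 0.049 for CISH. With IFN-γ it gave -0.14 to 0.52 for SOCS1 and -0.005 to 0.31 for CISH. It gave -0.56 to 0.52 for SOCS7 and -0.27 to 0.47 for SOCS3 in the difference between responses, and -0.039 to 0.087 for SOCS5 and -0.24 to 0.11 for CISH in the mean line difference. None of the values that changed sign was called after the change.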
